A study of Mus musculus with 30 samples.

Results

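Immunity-related GTPases (IRGs) and guanylate-binding proteins (GBPs) were followed in the healing fracture callus through 10 genes chosen by name, namely Igtp, Irgm1, Irgm2, Iigp1, Tgtp1, Gbp2, Gbp3, Gbp5, Gbp6 and Gbp7. Of these, 8 were found among the 43629 genes of the count table, and Gbp5 and Gbp6, whose Ensembl identifiers were not matched, are not analysed here. The mice were male C57BL/6J, 20 weeks old at surgery, with no engineered allele, and the right tibia was cut by open osteotomy and held with a nail in the marrow canal. Lean controls ate a lean diet. Diet-induced obese (DIO) mice ate a high-fat diet before and after the fracture, so that obesity and the diet itself cannot be told apart. Calli of both diets came from d3, d5, d7 and d10 after surgery, and those of DIO mice also from d14 and d21. Each combination held 3 mice, with 1 poly(A) RNA library per callus, which gave 30 libraries in all. Between 13247122 and 26365620 reads per library were counted on genes. No lean library of the last 2 days was used here.

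IRGs and GBPs are large GTPases that interferons switch on in macrophages and many other cells, and they are best known for attacking the vacuoles in which bacteria and parasites live. Within the IRGs, Irgm1, Irgm2 and Igtp (also called Irgm3) sit on the cell's own membranes and hold the family in check, whereas Iigp1 (Irga6) and Tgtp1 (Irgb6) are effectors that load onto the vacuole. GBPs coat vacuoles and free bacteria and help inflammasomes to respond to microbial products. Type II interferon (interferon-gamma) acts first through gamma-activated sites (GAS), and type I interferon acts mainly through interferon-stimulated response elements (ISRE). This split is not exclusive, and an ISRE match does not tell which type acts on a gene. A fracture callus passes from an inflammatory clot through cartilage to woven bone, and leukocytes are present throughout.

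The promoters are shown first because these motifs are a feature that the choice by name did not use. RefSeq promoter windows on GRCm38.p6, from 250 bases before to 50 bases after the annotated start, were found for 8 of the 10 genes, Gbp5 included. Both strands were searched for the ISRE letters GAAANNGAAA and for the GAS letters TTCNNNGAA, which read the same on either strand. The 60 bases around the first ISRE match of each gene are printed 5′ to 3′ on the strand of the gene, with the matches in capitals and overlapping ISRE matches as 1 run.
Igtp (chr11:58199492-58199551, plus strand): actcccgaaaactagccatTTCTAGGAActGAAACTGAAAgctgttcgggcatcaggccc
Irgm2 (chr11:58214883-58214942, plus strand): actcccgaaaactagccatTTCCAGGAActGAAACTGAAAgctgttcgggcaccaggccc
Tgtp1 (chr11:48992294-48992353, minus strand): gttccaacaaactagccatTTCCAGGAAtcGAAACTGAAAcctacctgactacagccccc
Irgm1 (chr11:48871421-48871480, minus strand): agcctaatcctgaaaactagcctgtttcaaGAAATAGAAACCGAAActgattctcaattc
Gbp2 (chr3:142620574-142620633, plus strand): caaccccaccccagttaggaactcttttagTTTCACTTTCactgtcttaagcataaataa
Gbp3 (chr3:142559969-142560028, plus strand): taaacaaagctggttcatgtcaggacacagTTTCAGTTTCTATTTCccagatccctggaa
Gbp5 (chr3:142496739-142496798, plus strand): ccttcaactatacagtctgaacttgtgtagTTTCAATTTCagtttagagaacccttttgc
Gbp7 (chr3:142530253-142530312, plus strand): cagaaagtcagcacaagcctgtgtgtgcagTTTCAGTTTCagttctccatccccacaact

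An ISRE match lay in the windows of all 8 genes, whereas 3.44% of 32851 mouse promoter windows held one. GAS matches were found for 5 of the 8 genes, against 8.30% of all windows. In Igtp, Irgm2 and Tgtp1 the GAS match ended 2 bases before the ISRE match. The stretches of Igtp and Irgm2 were identical at 58 of 60 bases, and that of Tgtp1 matched them at 39 and 41 of 60 bases. The ISRE match of the IRG genes was written on the strand of the gene and that of the GBP genes on the other strand. Gbp3 has a further annotated start whose window held neither motif. Of the other genes of the families, 4 of 5 with a window held an ISRE match, and 6 of 8 interferon-alpha/beta targets did. Only 1 of 7 interferon-gamma targets from outside the families held one, and none of the cell type marker lists did. Such a match is a run of letters, and binding at these places was not measured here.

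**Figure D1:**
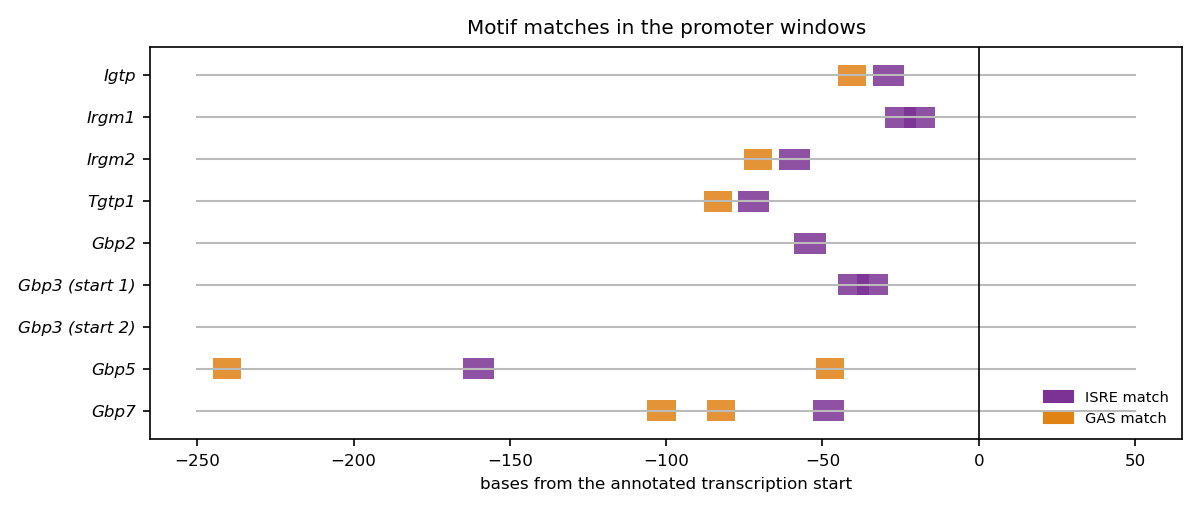
Positions of ISRE matches (purple) and GAS matches (orange) in the 9 promoter windows of 8 member genes, in bases from the annotated transcription start (vertical line). In Igtp, Irgm2 and Tgtp1 the GAS match lies just upstream of the ISRE match, and the first ISRE match starts 30 to 77 bases before the start site in every gene but Gbp5, where it starts 165 bases before it.

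The genes lie in clusters on GRCm38. Igtp (chr11:58199556-58207591) and Irgm2 (chr11:58199618-58222782) share a strand and overlap, and 8.21% of the Igtp transcript and 4.62% of the Irgm2 transcript are shared with the other, so that a small part of their reads cannot be assigned to either with certainty. Irgm1 (chr11:48861968-48871683) and Tgtp1 (chr11:48985327-48994172) lie elsewhere on chromosome 11. Gbp7 (chr3:142530342-142550149), Gbp3 (chr3:142560026-142573209) and Gbp2 (chr3:142620602-142638008) follow each other on chromosome 3. Of the Tgtp1 transcript, 99.6% is near-identical to its neighbour Tgtp2, and 11.3% of the Gbp7 transcript overlaps the gene model Gm43802. For Irgm1, Iigp1, Gbp2 and Gbp3, a search for runs of 100 bases or more with 95% or higher identity found nothing elsewhere.

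Transcripts of 7 of the 8 genes were counted in every library, with 33 reads or more. Counts scaled to library size (CPM) were scaled with TMM factors, and levels of different genes were compared as CPM per kb of annotated exon. Over the 30 libraries Igtp was at 10.4 ± 3.71 CPM per kb (mean ± SD), Irgm2 at 7.41 ± 2.65, Gbp2 at 6.42 ± 2.30, Irgm1 at 6.20 ± 1.82 and Gbp3 at 4.49 ± 1.98. Iigp1 followed at 1.94 ± 1.07 CPM per kb and Gbp7 at 1.70 ± 0.759. Neighbours in this order from Igtp to Gbp3, and Iigp1 and Gbp7, differed by less than the larger of their SDs. Tgtp1 was at 0.118 ± 0.0920 CPM per kb with 0 to 20 reads in each library. Since its reads could belong to Tgtp2, its values are not read as levels of Tgtp1 alone. It stays among the 8 genes in the counts of members, where its share carries little information. Both diets held Tgtp1 at 1.09 CPM or less on every day.

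In lean calli all members but Tgtp1, which had too few reads to place, had their highest mean on d5, and most had their lowest on d10. Gbp3, a GBP of the chromosome 3 cluster, had a mean of 13.6 ± 4.77 CPM on d3 and of 26.7 ± 5.34 CPM on d5 (SD, n = 3). Its mean was 18.2 ± 4.58 CPM on d7 and 9.57 ± 2.65 CPM on d10. For Gbp3 the 3 mice read 9.35, 12.7 and 18.8 CPM on d3, then 32.7, 22.5 and 24.9 CPM on d5. They were at 14.9, 23.5 and 16.3 CPM on d7 and at 6.58, 11.7 and 10.5 CPM on d10. The Gbp3 mice of d5 were thus all above those of d3 and of d10, while d5 and d7 overlapped. Iigp1, an effector, had the same high point, with 3.68, 7.52 and 16.5 CPM on d3 against 27.9, 13.8 and 25.3 CPM on d5, and these days overlapped.

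A difference between any of the 4 lean days was called for 4 of the 8 members, beside 19% of all genes tested (edgeR quasi-likelihood test, Benjamini-Hochberg adjusted p under 0.05). These were Gbp3 (adjusted p = 0.0207), Gbp7 (0.0411), Gbp2 (0.0479) and the regulator Irgm2 (0.0488), and Irgm1 lay just outside the threshold (0.0581). Most of these calls lay near the threshold and depended on single mice. Without mouse 1 of d5 no member was called. Gbp3 alone was called without mouse 2 of d3, mouse 2 or 3 of d5, mouse 2 of d7 or mouse 2 of d10, and 2 members were called without mouse 1 of d3, mouse 1 or 3 of d7 or mouse 1 of d10.

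Between neighbouring lean days no member passed the test in edgeR fitted to the 12 lean libraries. From d3 to d5 all 8 members were higher, with a median log2 fold change of 0.59 against 0.02 over all genes. An unadjusted p under 0.05 was found for 4 of them and for 2430 of 16471 genes tested, and 0.449% of all genes were called. In 3 of the 8 the mice of d5 were all above those of d3, as in 12.8% of all genes. From d5 to d7 no member had an unadjusted p under 0.05, while 926 of 16471 genes did, and 0% of all genes were called. From d7 to d10 all 8 were lower, with a median of −0.62. Of these, 5 had an unadjusted p under 0.05, as did 4275 of 16471 genes, and 2.73% of all genes were called. In 5 of the 8 the mice of d10 were all below those of d7, as in 14.7% of all genes. DESeq2 called Gbp3 from d3 to d5, no member from d5 to d7, and Gbp3 and Gbp7 from d7 to d10. With all 30 libraries in 1 fit, edgeR called 3 members from d7 to d10 (Gbp3, Gbp7 and Irgm1).

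Gbp7 was the only member called between the ends of the lean time course. Its mice read 9.94, 11.6 and 10.1 CPM on d3 and 2.07, 5.12 and 7.30 CPM on d10, with no overlap. This was a 2.15-fold fall (log2 fold change −1.11 ± 0.37 SE, adjusted p = 0.0398, edgeR), in a comparison in which 14.1% of all genes were called lower. The call was lost without mouse 1, 2 or 3 of d3 or mouse 1 or 2 of d10, whereas DESeq2 called Igtp as well.

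In DIO calli, Igtp, Irgm1, Iigp1 and Gbp3 had their lowest means on d3 to d7 and higher means on d14 and d21. Irgm2, Gbp2 and Gbp7 did not keep to this order, since Irgm2 and Gbp2 on d21 were below d5 and Gbp7 on d10 was below d3. Irgm1, which keeps effector IRGs off the cell's own membranes, was at 31.8, 21.2 and 25.1 CPM in the mice of d3, at 23.99, 26.8 and 22.9 on d5 and at 20.6, 25.8 and 21.4 on d7. It then stood at 41.0, 35.4 and 31.6 CPM on d10, at 47.6, 46.8 and 38.1 on d14 and at 44.5, 41.4 and 52.3 on d21. All 9 DIO mice of d10 to d21 thus had more Irgm1 than any of d5 and d7. A difference between any of the 6 DIO days was called for 6 of the 8 members, where 59.1% of all genes were called. The calls were Igtp (adjusted p = 7.46e-05), Irgm1 (8.27e-05), Gbp3 (0.000541), Iigp1 (0.000688), Gbp7 (0.00104) and Irgm2 (0.0434), and Tgtp1 (0.0566) and Gbp2 (0.135) did not pass.

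The step from d7 to d10 was the only rise between neighbouring DIO days at which members were called. Irgm1 rose 1.58-fold (log2 fold change 0.66 ± 0.17, adjusted p = 0.0152). For Iigp1 the mice read 6.02, 6.22 and 3.21 CPM on d7 and 15.6, 11.5 and 7.77 CPM on d10, and this gene rose 2.24-fold (1.16 ± 0.34, adjusted p = 0.0302). These 2 members stand beside 6.01% of all genes called higher, and 5 members did not overlap between the days in that direction, as 14.0% of all genes did. Without mouse 1 of d10 neither was called, without mouse 1 of d7 only Iigp1 was, and without mouse 2 of d10 only Irgm1 was. With all 30 libraries in 1 fit, Iigp1 was not called (adjusted p = 0.0757, edgeR). Without mouse 3 of d7, Irgm1 and Igtp were called. In both diets, the running numbers in the sample titles of d10 lie above all those of d3 to d7. What these numbers stand for is not given. In either diet, a difference between d10 and any of d3 to d7 thus cannot be told apart from this change in numbering. In edgeR no member was called from d3 to d5 (1.68% of all genes called) or from d5 to d7 (0.0177%), and DESeq2 called none. No member had an unadjusted p under 0.05 at either step, while 2333 and 2411 of 16995 genes did. From d10 to d14 no member was called either, beside 0.759% of all genes, although DESeq2 called Gbp3. At this step 3 members had an unadjusted p under 0.05, as did 3006 of 16995 genes.

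By d21 the members had parted. Against d3, 5 of the 8 rose in DIO calli, beside 23.5% of all genes called higher. Iigp1 was 2.69-fold higher (log2 fold change 1.43 ± 0.34, adjusted p = 0.00237), Gbp3 2.17-fold (adjusted p = 0.00154), Gbp7 2.05-fold (0.00911), Irgm1 1.80-fold (0.000641) and Igtp 1.78-fold (0.00167). In these 5 the mice of d21 were all above those of d3, as in 27.7% of all genes, and leaving out any one mouse of either day left at least 5 members called. Gbp7 read 14.5, 10.5 and 8.97 CPM on d14 and 15.1, 14.6 and 19.1 CPM on d21, with no overlap, but that step was not called (adjusted p = 0.209, edgeR).

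Irgm2 fell over the same last step. Its 3 mice read 37.8, 34.2 and 30.6 CPM on d14 and 10.3, 11.9 and 28.5 CPM on d21, so that mouse 3 of d21 stood apart from the other 2 and close to d14. In the sample titles, mouse 3 of d21 carries the highest running number, and the other 2 carry numbers in the range of d3 to d7. Whether this bears on Irgm2 was not tested. The fall was 2.00-fold (log2 fold change −0.999 ± 0.297, adjusted p = 0.0269), beside 9.03% of all genes called lower. The call was lost without mouse 1 or 3 of d14 or mouse 1 or 2 of d21. Igtp, the neighbour that shares part of its reads, stood at 26.3, 24.7 and 25.5 CPM in the same mice of d21.

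**Figure D2:**
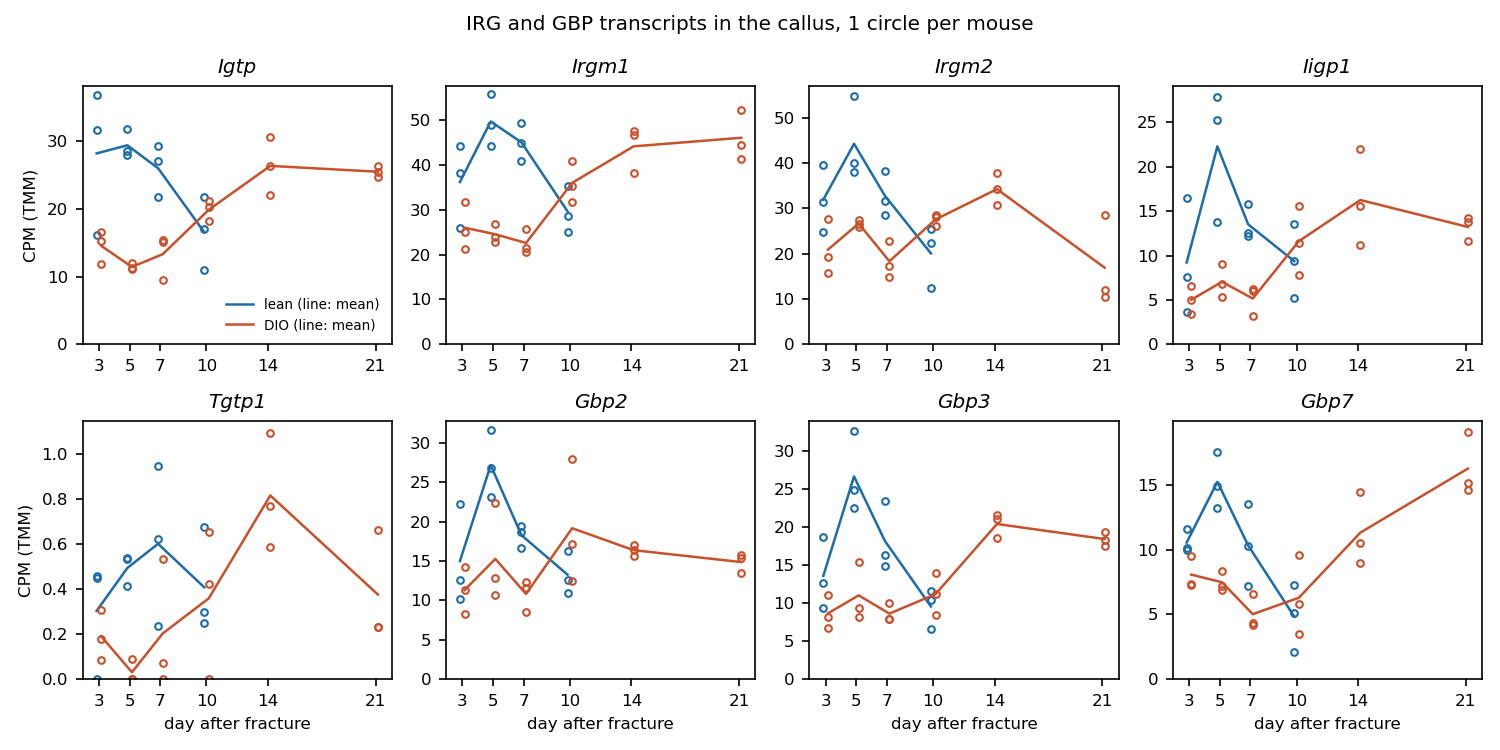
CPM of the 8 members against the day after fracture, 1 circle per mouse, with lean mice in blue and DIO mice in orange, shifted slightly sideways, and lines through the means of 3 mice. Apart from Tgtp1, lean levels are highest on d5 and DIO levels are lower on d3 to d7 and overtake the lean mean by d10.

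The diets were compared on each shared day. On d3, d7 and d10 the running numbers in the sample titles fall into separate runs for lean and DIO mice. On d5 the numbers of the lean mice lie between those of the DIO mice. What the numbers stand for is not given, so on d3, d7 and d10 the diet cannot be told apart from its run. On d5, all 7 members tested were lower in DIO calli, and in all 7 the 3 DIO mice were below the 3 lean mice, which held for 12.4% of all genes. Tgtp1 was too low to be tested in these fits. Of the 7 members, 4 passed the test as lower, against 0.948% of all genes. The median log2 fold change of the 7 was −1.03, against 0.01 over all genes.

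Among the regulators, Igtp was at 31.8, 28.5 and 27.96 CPM in the lean mice of d5 and at 11.1, 11.9 and 11.3 CPM in the DIO mice. The groups lay far apart, and Igtp was 2.58-fold lower in DIO (log2 fold change −1.37 ± 0.12, adjusted p = 0.0199, edgeR). Irgm1 was at 55.9, 44.3 and 49.01 CPM in lean mice and at 23.99, 26.8 and 22.9 in DIO mice, 2.03-fold lower (−1.02 ± 0.12, adjusted p = 0.0296). Irgm2, the third regulator, was at 54.7, 38.0 and 39.9 CPM in lean and 26.6, 27.4 and 25.8 in DIO mice. Its 1.66-fold difference did not pass (adjusted p = 0.0665).

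Of the 7 members tested, the effector Iigp1 had the widest difference, with 27.9, 13.8 and 25.3 CPM in lean and 6.82, 9 and 5.29 CPM in DIO mice of d5. It was 3.16-fold lower in DIO (log2 fold change −1.66 ± 0.30, adjusted p = 0.0498), at the edge of the threshold, and lean mouse 2 was well below the other lean mice. Of the GBPs, Gbp7 was at 17.6, 13.2 and 14.9 CPM in lean and 6.87, 8.34 and 7.22 CPM in DIO mice and was 2.04-fold lower (−1.03 ± 0.17, adjusted p = 0.0442). Gbp3 was 2.42-fold lower (adjusted p = 0.0665) and Gbp2 1.78-fold lower (adjusted p = 0.163), and neither passed. For Gbp2 and Gbp3 the DIO mouse 2 was nearest to the lean mice, at 22.4 and 15.5 CPM.

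The number called on d5 moved with single mice. It was 0 without lean mouse 2 or without DIO mouse 1, 2 or 3, it was 2 (Igtp and Irgm1) without lean mouse 1, and it was 6 without lean mouse 3. All 7 log2 fold changes were below 0 in each of these fits. DESeq2 called all 7. Iigp1 was no longer called with RLE factors (adjusted p = 0.0508, edgeR), and with all 30 libraries in 1 fit Iigp1 (0.0692) and Gbp7 (0.158) were not called, whereas Gbp3 was.

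On d7 the 7 members were again all lower in DIO calli, with no overlap between the mice, as in 12% of all genes, and a median log2 fold change of −0.98 against 0.00. Irgm1 and Iigp1 passed the test, where 0.920% of all genes were called lower. Irgm1 was at 44.9, 49.4 and 40.8 CPM in lean and at 20.6, 25.8 and 21.4 CPM in DIO mice, 1.98-fold lower (−0.98 ± 0.17, adjusted p = 0.0241). Iigp1 was at 12.2, 15.8 and 12.6 CPM in lean and 6.02, 6.22 and 3.21 CPM in DIO mice, 2.60-fold lower (−1.38 ± 0.29, adjusted p = 0.0448). The other 5 were 1.67-fold to 2.09-fold lower, with adjusted p-values of 0.0548 for Gbp3, 0.0738 for Igtp, 0.0837 for Irgm2, 0.121 for Gbp2 and 0.141 for Gbp7. No member was called without lean mouse 1 or 2 or DIO mouse 1, only Irgm1 was called without lean mouse 3 or DIO mouse 2, and 3 were called without DIO mouse 3. DESeq2 called 6, all but Gbp2. With all 30 libraries in 1 fit, Iigp1 was not called (adjusted p = 0.0623, edgeR), and Igtp and Gbp3 were.

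On d3 the members were lower as well, but not past the test. In edgeR 0% of all genes and no member were called, and DESeq2 called Igtp. An unadjusted p under 0.05 was found for 3 members and for 2374 of 15772 genes. Igtp was at 16.2, 36.8 and 31.6 CPM in lean and at 16.6, 11.9 and 15.2 CPM in DIO mice, so that lean mouse 1 lay within the DIO range. Its log2 fold change was −0.98 ± 0.29 (adjusted p = 0.19). Only for Gbp7 did the DIO mice all lie below the lean mice, as for 10.6% of all genes. The median log2 fold change of the 7 members was −0.63.

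On d10 the sign was the other way. All 7 log2 fold changes were above 0, with a median of 0.32, but no member and 0% of all genes were called in edgeR, and DESeq2 called no member. No member had an unadjusted p under 0.05 either, while 1082 of 15341 genes did. Without DIO mouse 1 the log2 fold change of Gbp7 was −0.055, against 0.39 with it. Irgm1 was at 25.1, 35.3 and 28.5 CPM in lean and at 41.0, 35.4 and 31.6 CPM in DIO mice, and the groups overlapped. Only Irgm2 did not overlap, with 12.4, 22.2 and 25.5 CPM in lean and 28.04, 28.4 and 26.1 CPM in DIO mice, as 7.11% of all genes did in that direction.

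**Figure D3:**
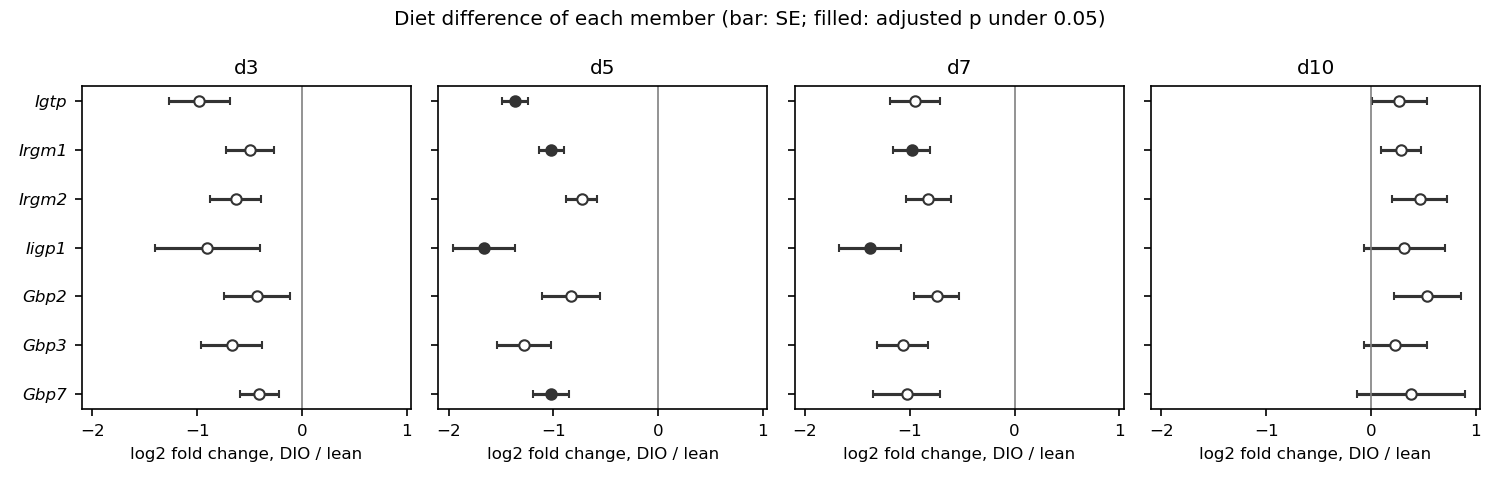
Log2 fold change of DIO against lean calli for the 7 members tested on d3, d5, d7 and d10, with bars of 1 SE and filled points where the adjusted p is under 0.05. All 7 points lie left of 0 on d3, d5 and d7 and right of 0 on d10 (Gbp7 on d10 is at −0.055 without DIO mouse 1), and 4 points on d5 and 2 on d7 are filled.

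Whether the diet difference varied between any of the 4 shared days was tested over all of them together, and the step from d7 to d10 was not tested by itself. The variation was called for Irgm1 alone (adjusted p = 0.0295), where 1.65% of all genes were called. Igtp (0.0626) and Irgm2 (0.0959) were the next members, and 7 of the 8 had an unadjusted p under 0.05, as did 3137 of 17057 genes. The Irgm1 call was lost without lean mouse 1 or 2 of d7, lean mouse 1 of d10 or any of the 3 DIO mice of d10. Igtp was also called without lean mouse 1 of d3 or lean mouse 2 of d10, and Irgm2 without lean mouse 3 of d10. When the course over d3 to d10 was described by a polynomial of degree 2 in the day, the diets differed for 6 of the 8 members, against 8.13% of all genes. These were Irgm1 (adjusted p = 0.00289), Igtp (0.00408), Gbp3 (0.0110), Iigp1 (0.0221), Irgm2 (0.0241) and Gbp7 (0.0411), and leaving out any one mouse gave 5 or 6 members called. With day as a factor, Gbp7 was not called (adjusted p = 0.072, edgeR).

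Leukocyte transcripts differed between the same groups, where 0.948% of all genes were called lower in DIO on d5 and 0.920% on d7. In bulk tissue, fewer cells of a type and less RNA per cell cannot be told apart. Ptprc, which encodes the leukocyte surface protein CD45, was at 143 ± 25.4 CPM in lean and 73.9 ± 2.53 CPM in DIO calli of d5, and it was 1.94-fold lower in DIO (adjusted p = 0.0432). On d7 it was 1.96-fold lower (adjusted p = 0.0418). The 4 leukocyte markers together summed to 804 to 1158 CPM in lean and 411 to 436 CPM in DIO mice of d5, and 3 of the 4 were called lower (Ptprc, Laptm5 and Cd53). Of the monocyte and macrophage markers 1 of 6 was called lower on d5 (Lyz2) and 3 of 6 on d7 (Csf1r, Cd68 and Mrc1). Their sums were 3460 to 4771 CPM in lean and 2034 to 2244 CPM in DIO mice of d5. Most of these sums came from Lyz2, with means of 3079 CPM in lean and 1474 CPM in DIO calli. The others were 1.39-fold to 4.06-fold lower on d5 and not called. T and NK cell markers summed to 37.1 to 54.1 CPM in lean and 12.1 to 14.8 CPM in DIO mice of d5, where 2 of 6 tested were lower (Cd4 and Cd8a). Neutrophil marker sums overlapped on d5, at 1976 to 7219 CPM in lean and 1359 to 3224 CPM in DIO mice, with S100a8, S100a9 and Mmp9 as their largest parts. By single marker, S100a8, S100a9, Csf3r, Cxcr2 and Ly6g were 2.05-fold to 4.26-fold lower in DIO on d5. Mmp9 was 1.055-fold higher, and none of these markers was called. On d5, 1 of 4 dendritic cell markers tested was called lower (Flt3, 3.10-fold, adjusted p = 0.0498, edgeR), and the 4 B cell markers tested were 5.64-fold to 9.38-fold lower with no overlap but were not called. No marker of these lists was at 0 in any group.

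Cartilage transcripts differed in the other direction. On d7, 2 of 6 chondrocyte markers were called higher in DIO calli, the transcription factor Sox9 (3.73-fold, adjusted p = 0.041, edgeR) and the matrix gene Matn3 (5.45-fold, adjusted p = 0.0376). Of 15753 genes tested on that day, 366 were called in either direction, 145 of them lower. The 6 markers summed to 3556 to 14460 CPM in lean and 14790 to 34450 CPM in DIO mice of d7. By group means, Col2a1 made up the largest part of these sums and of those of d10. On d10 all 6 were lower in DIO, by 3.44-fold to 8.75-fold, and none was called, where 0% of all genes were. Their sums were 13410 to 67600 CPM in lean and 2335 to 6660 CPM in DIO mice. The median log2 fold change of these markers was thus above 0 on d3 to d7 and below 0 on d10, and that of the members was the reverse. The part of these leukocyte and cartilage differences in the levels of the members was not tested.

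For the summed members set against Ptprc, the ranges of the diets overlapped on d3, d5 and d7. The sum does not show the ratio of each member. On d5, Iigp1, Igtp, Gbp3, Gbp7 and Irgm1 differed by a wider fold between the diets than Ptprc did. Gbp2 and Irgm2 differed by a narrower fold. The summed CPM of the 8 members was 215 ± 34.8 in lean and 103 ± 15.5 in DIO calli of d5, but divided by Ptprc in the same library it was 1.76, 1.09 and 1.78 in lean and 1.30, 1.58 and 1.31 in DIO mice. On d7 the ratio was 1.41, 1.29 and 0.939 in lean and 1.19, 1.51 and 0.982 in DIO mice, and on d3 it was 0.725, 0.599 and 1.31 in lean and 0.907, 0.708 and 1.38 in DIO mice. The lean and DIO mice were intermixed on all 3 days, and no test was made of this ratio. With time, the ratio to Ptprc went from 0.877 ± 0.378 on d3 to 2.64 ± 1.201 on d10 in lean calli, where Ptprc had fallen to 46.8 ± 24.9 CPM. In DIO calli it rose to 1.93 ± 0.369 on d10 and was 1.03 ± 0.106 on d14 and 0.693 ± 0.180 on d21, where Ptprc reached 230 ± 64.3 CPM. The change with time depended on the marker, as a comparison added after the data were seen showed. Per Laptm5, another leukocyte transcript, the members were at 0.376 ± 0.145 on d3, 0.547 ± 0.113 on d5 and 0.362 ± 0.122 on d10 in lean calli. Per Cd53 the lean ratio was 1.93 ± 0.771 on d3 and 5.13 ± 1.60 on d10, and per Coro1a it was 0.327 ± 0.133 and 0.960 ± 0.485. With each of the 4 markers the ranges of the summed members overlapped between the diets on d3, d5 and d7. These ratios are a description, and which cells made the transcripts was not measured here.

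**Figure D4:**
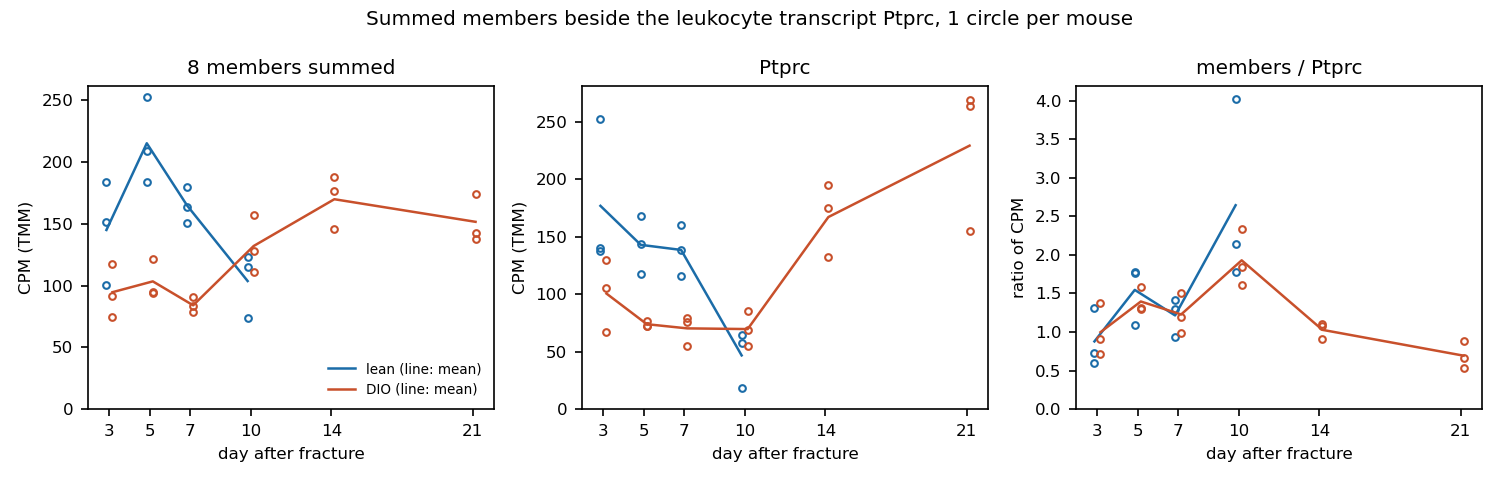
Summed CPM of the 8 members (left), CPM of Ptprc (middle) and their ratio in each library (right) against the day after fracture, 1 circle per mouse, with lines through the means of lean (blue) and DIO mice (orange). Both levels are lower in DIO calli on d5 and d7, whereas the ratios of the diets overlap, and the ratio is highest on d10 in both.

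The genes that carry the interferon-gamma signal gave the next view. Ifng itself was barely counted, with at most 11 reads (0.389 CPM) in a lean library, and its highest lean level was 0.591 CPM from 10 reads. It had reads in 7 of 9 lean libraries of d3 to d7 and 0 reads in the 9 DIO libraries of these days, which allows up to 3 reads per library, or at most 0.220 CPM. Irf1, a transcription factor that interferon-gamma induces, was 1.60-fold lower in DIO calli of d5 (77.5 ± 2.12 CPM in lean, 48.7 ± 5.47 in DIO, adjusted p = 0.0432, edgeR). Irf8, a factor of myeloid cells, was 2.19-fold lower (adjusted p = 0.0432). The receptor chains Ifngr1 and Ifngr2, the kinases Jak1 and Jak2 and the inhibitor Socs1 were not called, with differences of 1.31-fold or less. On d7 neither Irf1 (adjusted p = 0.128) nor Irf8 (0.134) was called, and the diet difference of Irf1 varied between days (adjusted p = 0.0283, edgeR).

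Other interferon-induced genes were also lower in DIO calli on d5 and d7, where 0.948% and 0.920% of all genes were called lower. Of 11 interferon-gamma targets from outside the families, 6 were called lower in DIO on d5 and 4 on d7, with median log2 fold changes of −1.13 and −0.79. Examples on d5 are Tap1, a peptide transporter of antigen presentation (2.22-fold lower, adjusted p = 0.0221), and Psmb9, an immunoproteasome subunit (2.36-fold lower, adjusted p = 0.0252). Of 12 interferon-alpha/beta targets, 10 were called lower on d5 and 3 on d7, with medians of −1.76 and −1.22. Oas2, a sensor of double-stranded RNA, was 2.73-fold lower on d5 (adjusted p = 0.0432) and 2.67-fold lower on d7 (adjusted p = 0.0229). Of 7 type I signalling genes tested, Stat2, Irf7 and Irf9 were lower on d5, and Irf9 on d7. The median of these lists, like that of the members, was above 0 on d10, when no gene of any of them was called in edgeR.

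Genes through which IRGs and GBPs are known to work were tested next. None of 10 autophagy conjugation genes, whose products guide IRGs and GBPs to vacuoles, was called between the diets on d3, d5, d7 or d10, and their median log2 fold change on d5 was 0.00. In edgeR no gene of any kind was called on d3 or d10, and 170 of 15722 genes were called on d5 and 366 of 15753 on d7. Of 8 inflammasome genes none was called either, although all 8 were lower on d5, with a median of −0.52. At these shares few calls could fall among 10 or 8 genes, so the lack of calls says little about them. In DIO calli Aim2, a DNA sensor that GBPs assist, was 3.75-fold higher on d21 than on d3 (13 and 48.1 CPM, adjusted p = 8.27e-06), and Casp1 1.93-fold higher (adjusted p = 0.00148). Between these days 23.5% of all genes were called higher.

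**Figure D5:**
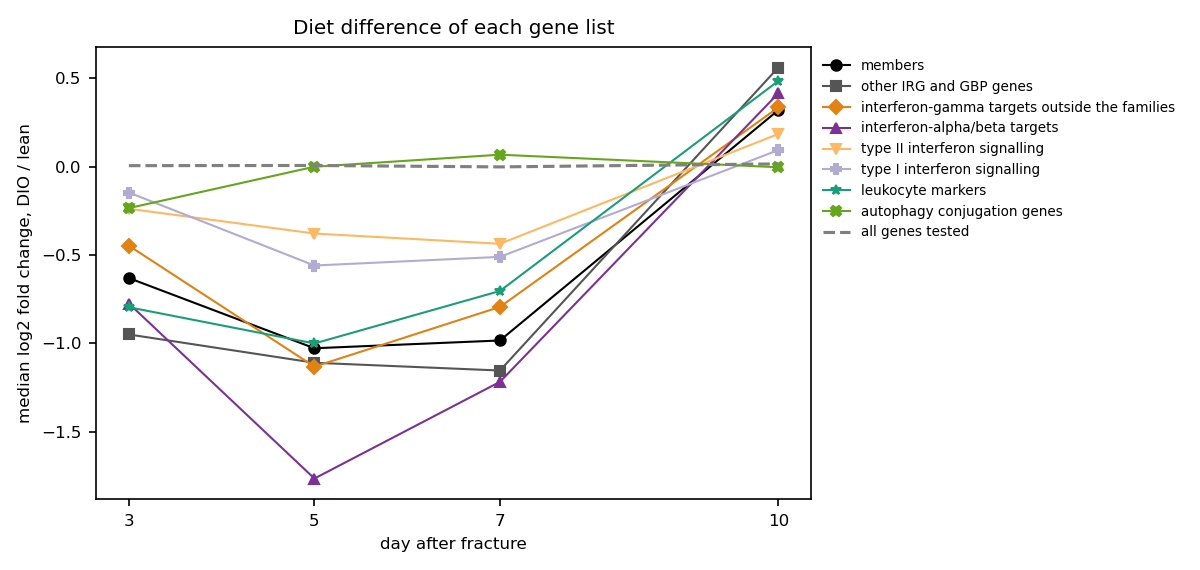
Median log2 fold change of DIO against lean calli over the tested genes of 8 lists on d3, d5, d7 and d10, with the median of all genes tested as a dashed line. The members, the other family genes, both sets of interferon targets and the leukocyte markers lie below 0 on d3 to d7 and above 0 on d10, and the autophagy genes lie near 0 from d5 onwards.

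Other genes of the same families pointed the same way. Of 15 listed, 13 were found in the table and 10 were tested between the diets on d5. All 10 were lower in DIO and 2 were called, beside 0.948% of all genes called lower. Tgtp2, the near-identical neighbour of Tgtp1, was 5.19-fold lower (2.32 ± 0.389 CPM in lean, 0.442 ± 0.0193 in DIO, adjusted p = 0.0384), and Gbp8 4.21-fold lower (7.16 ± 1.60 and 1.69 ± 0.361 CPM, adjusted p = 0.0342). Gbp4 was called on d7 (2.37-fold lower, adjusted p = 0.0485). From d3 to d21 in DIO calli 5 of 11 tested rose, beside 23.5% of all genes called higher. Among them were Gbp8 (10.1-fold, adjusted p = 4.64e-06) and Tgtp2 (5.74-fold, adjusted p = 0.00275). Reads counted for Tgtp2 could likewise belong to Tgtp1. Gbp4, Gbp8 and Gbp9 overlap each other on the same strand, and short stretches of each are near-identical to others of the cluster. The gene model Gm43302, which was looked at after its values were seen, spans Gbp6 and Gbp10 and cannot be told apart from them. It was at 3.888 ± 1.198 CPM in lean and 1.37 ± 0.767 CPM in DIO calli of d5, with no overlap (adjusted p = 0.163).

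Likeness between the 7 expressed members was described by correlation. Over the 30 libraries, the Pearson correlation of log2 CPM between 2 members ran from 0.41 (Irgm2 and Gbp7) to 0.91 (Irgm1 and Gbp3), with a median of 0.67 over 21 pairs. When each group's mean was subtracted, it ran from 0.36 (Irgm1 and Gbp7) to 0.86 (Irgm1 and Iigp1), with a median of 0.56. Irgm2 and Igtp, which share part of their reads, reached 0.53 and 0.55. These values describe libraries of a few groups that differ in depth and in their mix of cells.

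Among 14801 other genes with a mean of at least 1 CPM, those closest to the mean standardized pattern of the 7 members were Ifi213 (r = 0.94), Calhm6 (0.93), Ifi203 (0.91), B2m (0.89), Parp9 (0.89), Ddx60 (0.89), Xaf1 (0.88), Gbp4 (0.88), Ifi206 (0.87) and Parp14 (0.86). For deviations from group means their r ran from 0.66 for Ifi206 to 0.86 for Parp14. B2m encodes the light chain of MHC class I, and Gbp4 belongs to the same family as the members. Irf1 ranked 22 with r = 0.82, and Ptprc ranked 233 with 0.66.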

How the data were processed

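RNA was extracted from whole calli, and poly(A) RNA was made into stranded libraries. Per the labels and the paper's methods, the authors aligned reads to GRCm38 with HISAT2 2.1.0 and counted them on genes with HTSeq. The deposited values are raw read counts per gene, without normalization. The annotation used for counting, the strand setting and the HTSeq release are not given in the sources used here, so reads of overlapping genes may be split in an unknown way. No UMIs are described in the sources used here, so that PCR copies may be counted as reads, and limits given for a count of 0 cover counting error only.

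Symbols, positions and exon lengths came from GENCODE M21 (42548 of 43629 identifiers matched), and promoter windows from RefSeq. The members and lists were chosen with earlier results of these data known. The genes named are the members, genes of the family and type II signalling lists (1 item is not reported here), at most 3 genes per other pathway list with the smallest adjusted p in each any-day test, the 10 genes most like the members, and markers.

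Counts were scaled with TMM factors, filtered with filterByExpr and tested with the two-sided quasi-likelihood test of edgeR 4.0.16 in R 4.3.3, with Benjamini-Hochberg adjustment over all genes tested and a threshold of 0.05. Lean days were tested in 1 fit of 12 libraries, DIO days in 1 fit of 18, the diets in a fit of the 6 libraries of each day, and the change of the diet difference and the time course over the 24 libraries of d3 to d10. Log2 CPM for correlations used a prior count of 2. Near-identical stretches were searched with BLAST. Alternatives were RLE factors, DESeq2 1.42.0, no filter but 1 count, the replicate block, all 30 libraries in 1 fit, day as a factor, and leaving out each mouse. The scripts were tested on simulated data.

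The replicate numbers name different mice. The deviations of same-numbered mice from their group means correlated above 0.1 in every pair in 1 of 14 comparisons (lean d7 against d5), where no member was called with or without the block, and the fits reported have no block. All 30 pairs of libraries of a group were checked for duplicates, and the lowest chi-square per degree of freedom was 13.6.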

Additional observations from a re-analysis of the deposited data

Results flagged for a closer look

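The diet difference of Irgm1 differed between days by a test of the difference itself (interaction of diet and day over d3 to d10, adjusted p = 0.0295, edgeR). Irgm1 was 1.41-fold lower in DIO than in lean calli on d3, 2.03-fold lower on d5 and 1.98-fold lower on d7, and it was 1.22-fold higher on d10. The call was kept with RLE factors, without the filter, with the replicate block, in DESeq2 and with all 30 libraries in 1 fit. It was lost without lean mouse 1 or 2 of d7, lean mouse 1 of d10 or DIO mouse 1, 2 or 3 of d10, and without DIO mouse 1 of d10 the adjusted p of Irgm1 was 0.105.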

How the results depend on the processing

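With 3 mice per group, most calls lay near the threshold. Leaving out 1 mouse at a time, the number of members called ran from 0 to 5 for any lean day, 0 to 1 for lean d5 against d3 and for lean d10 against d7, and 0 to 2 for lean d10 against d3. It ran from 5 to 7 for any DIO day, 0 to 3 for DIO d10 against d7, 0 to 1 for DIO d21 against d14 and 5 to 6 for DIO d21 against d3. It ran from 0 to 6 for the diets on d5, 0 to 3 on d7, 0 to 2 for a diet difference that varies between days, and 5 to 6 for the time course between diets. Among these fits 727 member values kept direction and side of the threshold, 104 lost and 14 gained the call. Gbp7 on d10 changed direction, from a log2 fold change of 0.39 to −0.055 without DIO mouse 1 (0.815 without lean mouse 3), and neither was called.

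DESeq2 called 1 member for lean d5 against d3, 2 for lean d10 against d7, 2 for lean d10 against d3 and 1 for DIO d14 against d10. Between the diets it called 1 on d3, 7 on d5, 6 on d7 and 4 for the difference between days. With all 30 libraries in 1 fit, 3 members were called for lean d10 against d7, 2 for lean d10 against d3, 1 for DIO d10 against d7 and 2 for the difference between days. Without the filter, 5 were called on d7 and 2 for the difference between days. The cause of these shifts was not tested.

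Over all genes, the diets gave 170 calls on d5 in edgeR, 1150 in DESeq2, 565 without the filter and 63 with all libraries. On d7 these were 366, 944, 724 and 675, on d3 0, 728, 515 and 0, and on d10 0, 47, 29 and 3. The difference between days gave 282, 1151, 503 and 290. DESeq2 gave 2497 calls against 1386 for the time course and 4847 against 3132 for any lean day. For lean d5 against d3 the same 4 fits gave 74, 605, 169 and 202 calls. Lean d10 against d7 gave 450, 1827, 607 and 1529, and lean d7 against d5 gave 0, 37, 0 and 2. In DIO calli, d5 against d3 gave 285 in edgeR, 575 in DESeq2 and 478 without the filter, d7 against d5 gave 3, 346 and 271 (1 with all libraries), and d14 against d10 gave 129, 552 and 329 (2 with all libraries).

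With the replicate block, 0 members and 0 genes were called between the diets on d5, where Igtp had an adjusted p of 0.201 (edgeR). The block gave 325 genes on d3 (0 without it), 199 for lean d5 against d3, 1479 for lean d10 against d7 and 45 for DIO d14 against d10. Same-numbered mice are different animals, and every mouse correlated best with its own number in 2 of 14 comparisons. With the block 63 member values kept their side of the threshold and 6 lost the call, which were Igtp, Irgm1, Iigp1 and Gbp7 on d5, Irgm2 for any lean day and Gbp7 for the time course.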
